A study of Mus musculus with 6 samples.

Results

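Intronic sites bound by FOXC2 in podocytes after adriamycin, and not called in control podocytes, were chosen by 2 properties of the deposited peak calls: the ADR peak shared no base with any PBS peak, and its summit lay in an intron, that is inside a transcript of GENCODE M21 (GRCm38) but outside every exon, promoter (1000 bp upstream to 100 bp downstream of a transcript start) and transcript end (100 bp upstream to 1000 bp downstream). There were 7199 such peaks among 40067 ADR peaks and 81142 peaks in both lists together, and 3928 when each list was reduced to its 20000 peaks of smallest q. FOXC2 ChIP-seq was collected from FACS-sorted podocytes of adult male mice in which a podocyte-specific Cre switches on the mT/mG reporter. ADR mice received adriamycin (doxorubicin) at 18 mg/kg on days 0 and 7, PBS mice received vehicle, and both groups, of 3 samples each, were taken on day 9. The mice were littermates of mixed background, and their age in weeks is not given in the sources used here. The authors describe each group as pooled into 1 peak list, but every peak name carries the tag of replicate 1, so whether all 3 samples of a group entered its list cannot be settled here. With 1 list per group the spread between mice is unknown, and nothing can be tested between ADR and PBS. Since the calls chose the sites, their ADR fold and their distance from PBS peaks are given as description only. A site missing from the PBS list had no call there, and the PBS signal under the threshold of the caller is not in the lists.

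FOXC2 is a forkhead transcription factor (TF) that podocytes need to build and keep their filtration structure. Forkhead factors bind A- and T-rich DNA words through a winged-helix domain, and podocytes also depend on the homeodomain factor LMX1B, the zinc finger factor WT1, the bHLH factor TCF21 and the TEAD factors, which work with YAP and TAZ. Adriamycin injures podocytes in rodents and is a common model of focal segmental glomerulosclerosis. Enhancers, the regulatory elements that often set cell type-specific transcription, frequently lie in introns.

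The sequences below show what the sites hold, as 200 bp of the GRCm38 plus strand (RefSeq) around the summit. Capitals mark exact matches, on either strand, to 4 motifs, and lower case does not mark repeats. These are forkhead (ACAAACA or ACAAATA or ATAAACA or ATAAATA or GCAAACA or GCAAATA or GTAAACA or GTAAATA), LMX1B (TTAATTA or TAATTAA), TEAD (ACATTCCA or ACATTCCT or GCATTCCA or GCATTCCT) and WT1 (GNGTGGGAG or GNGTGGGCG or GNGGGGGAG or GNGGGGGCG). The first set holds the 5 strongest sites. *Camta1* has 2 forkhead matches and 2 overlapping LMX1B matches, *Klc1* has 1 forkhead match, and the windows of *Fgfr2*, *Tef* and *Fyn* have no match to these 4 motifs.
*Camta1*, chr4:151181500-151181699: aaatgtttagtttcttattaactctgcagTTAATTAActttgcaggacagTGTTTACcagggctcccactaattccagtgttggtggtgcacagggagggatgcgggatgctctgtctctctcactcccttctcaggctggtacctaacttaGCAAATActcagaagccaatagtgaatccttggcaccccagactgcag
*Fgfr2*, chr7:131453204-131453403: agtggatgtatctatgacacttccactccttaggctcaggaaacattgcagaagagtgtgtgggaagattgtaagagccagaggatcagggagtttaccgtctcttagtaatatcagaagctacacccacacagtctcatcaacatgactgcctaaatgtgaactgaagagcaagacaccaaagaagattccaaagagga
*Klc1*, chr12:111780499-111780698: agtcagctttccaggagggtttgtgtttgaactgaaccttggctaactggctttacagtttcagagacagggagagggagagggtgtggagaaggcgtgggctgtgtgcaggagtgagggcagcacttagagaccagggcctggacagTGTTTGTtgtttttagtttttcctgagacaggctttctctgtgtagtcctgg
*Tef*, chr15:81804694-81804893: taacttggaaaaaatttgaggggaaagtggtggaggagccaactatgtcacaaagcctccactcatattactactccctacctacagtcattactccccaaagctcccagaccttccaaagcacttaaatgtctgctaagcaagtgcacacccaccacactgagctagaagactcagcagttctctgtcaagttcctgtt
*Fyn*, chr10:39495298-39495497: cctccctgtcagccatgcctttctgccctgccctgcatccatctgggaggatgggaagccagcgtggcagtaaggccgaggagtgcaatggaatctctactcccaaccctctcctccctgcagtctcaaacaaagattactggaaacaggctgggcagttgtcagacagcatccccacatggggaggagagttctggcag

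The second set holds the strongest site in each of 4 podocyte genes. A WT1 match lies close to the summit of *Pak1* and toward the edge of the *Tmem150c* window, *Npr3* has 1 forkhead match, and *Iqgap2* has none of the 4 motifs. The *Tmem150c* window is marked as repeat sequence throughout in the reference genome.
*Pak1*, chr7:97852310-97852509: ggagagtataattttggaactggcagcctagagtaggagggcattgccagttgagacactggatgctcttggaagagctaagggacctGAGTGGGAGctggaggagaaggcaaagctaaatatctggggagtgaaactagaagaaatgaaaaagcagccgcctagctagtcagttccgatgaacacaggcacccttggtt
*Tmem150c*, chr5:100115901-100116100: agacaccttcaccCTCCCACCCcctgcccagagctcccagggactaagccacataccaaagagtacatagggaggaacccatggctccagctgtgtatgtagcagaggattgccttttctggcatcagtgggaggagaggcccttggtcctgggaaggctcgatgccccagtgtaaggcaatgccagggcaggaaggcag
*Npr3*, chr15:11898976-11899175: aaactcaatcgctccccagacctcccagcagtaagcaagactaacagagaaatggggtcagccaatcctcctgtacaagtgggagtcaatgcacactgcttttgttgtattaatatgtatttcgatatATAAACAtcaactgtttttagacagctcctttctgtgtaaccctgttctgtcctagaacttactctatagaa
*Iqgap2*, chr13:95880661-95880860: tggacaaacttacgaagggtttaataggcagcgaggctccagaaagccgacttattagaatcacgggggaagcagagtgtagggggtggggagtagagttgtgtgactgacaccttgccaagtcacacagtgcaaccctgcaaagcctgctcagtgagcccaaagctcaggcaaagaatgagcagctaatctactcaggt

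The third set holds the strongest sites, after *Camta1*, with both a forkhead and an LMX1B match. In *Abca14* the LMX1B words overlap and repeat, and in *Etl4* the forkhead and LMX1B matches flank the summit.
*Etl4*, chr2:20603491-20603690: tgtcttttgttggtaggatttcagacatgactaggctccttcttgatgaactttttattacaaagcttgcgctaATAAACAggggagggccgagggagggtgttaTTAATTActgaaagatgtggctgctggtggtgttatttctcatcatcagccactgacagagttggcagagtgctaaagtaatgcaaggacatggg
*Abca14*, chr7:120289979-120290178: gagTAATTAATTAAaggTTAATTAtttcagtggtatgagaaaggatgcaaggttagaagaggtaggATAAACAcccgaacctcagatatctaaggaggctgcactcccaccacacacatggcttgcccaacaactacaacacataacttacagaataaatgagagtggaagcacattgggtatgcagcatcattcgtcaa
*AC154218.2*, chr17:71161660-71161859: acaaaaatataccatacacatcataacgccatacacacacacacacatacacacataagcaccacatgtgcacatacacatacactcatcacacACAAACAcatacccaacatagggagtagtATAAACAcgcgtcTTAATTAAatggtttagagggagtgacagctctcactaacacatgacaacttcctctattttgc

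Introns held most of the sites found in the ADR list alone. Of 12955 ADR-only peaks, 55.6% had an intronic summit (95% Wilson interval 54.7 to 56.4), against 34.8% (34.3 to 35.4) of 27112 ADR peaks that overlapped a PBS peak and 45.1% (44.3 to 46.0) of 13597 PBS-only peaks. Intervals here and below cover counting error only and do not measure the spread between mice. Read from the other side, 43.3% of the 16640 intronic ADR peaks were ADR-only, beside 32.3% of all ADR peaks. The same share was 10.5% at promoters and 40.5% between genes. The intronic share exceeded the promoter share by 32.7 percentage points (95% Newcombe interval 31.8 to 33.7) and the intergenic share by 2.81 points (1.49 to 4.12). In the PBS list, 39.0% of intronic, 18.2% of promoter and 43.5% of intergenic peaks were PBS-only, so promoters were lowest in both lists. Call and place both chose the sites, so these shares are description only. Across chromosomes the ADR-only share of intronic ADR peaks lay between 39.3% on chromosome 11 and 51.4% on chromosome X, where the interval was 44.1 to 58.6.

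**Figure D1:**
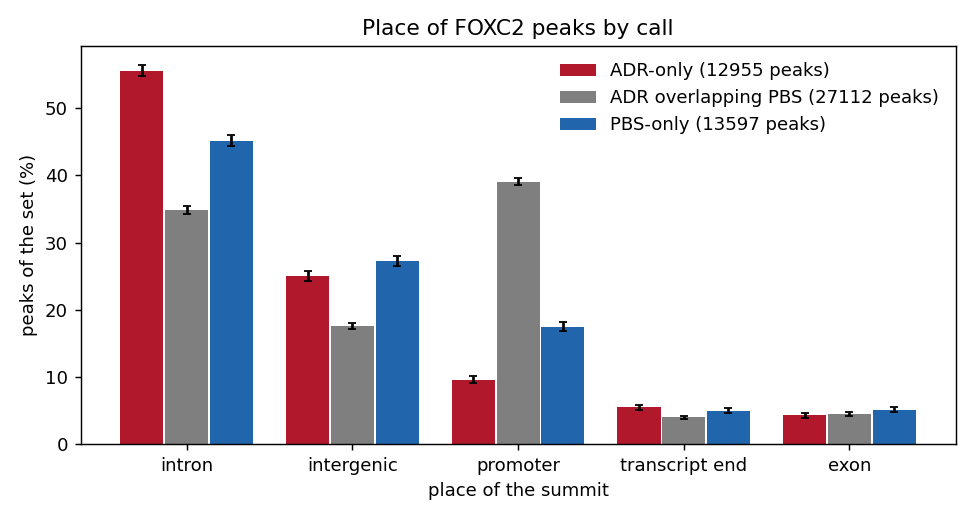
Share of peaks (y axis, percent of each set) by place of the summit (x axis) for ADR-only peaks, ADR peaks overlapping a PBS peak, and PBS-only peaks, with 95% Wilson intervals as bars. Introns hold 55.6% of the ADR-only peaks, 34.8% of the ADR peaks overlapping PBS and 45.1% of the PBS-only peaks.

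Most of the ADR-only intronic sites were modest peaks with a long upper tail. Fold enrichment over the local control, as the authors' caller gave it, had a median of 6.05 (quartiles 4.84 and 8.57, range 2.55 to 46.1), against 9.40 for the 9441 intronic ADR peaks that overlapped a PBS peak and 5.14 for the 6138 PBS-only intronic peaks. A fold of 10 or more was reached by 1333 of the 7199 sites (18.5%), by 297 of the PBS-only intronic peaks (4.84%) and by 4454 of the overlapping ones (47.2%). A fold of 20 or more was reached by 183 (2.54%), beside 11.2% of all ADR peaks. The sites were narrow, with a median width of 271 bp against 391 bp for the overlapping intronic ADR peaks. The 2 lists were called separately, so ADR and PBS folds are set side by side only.

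**Figure D2:**
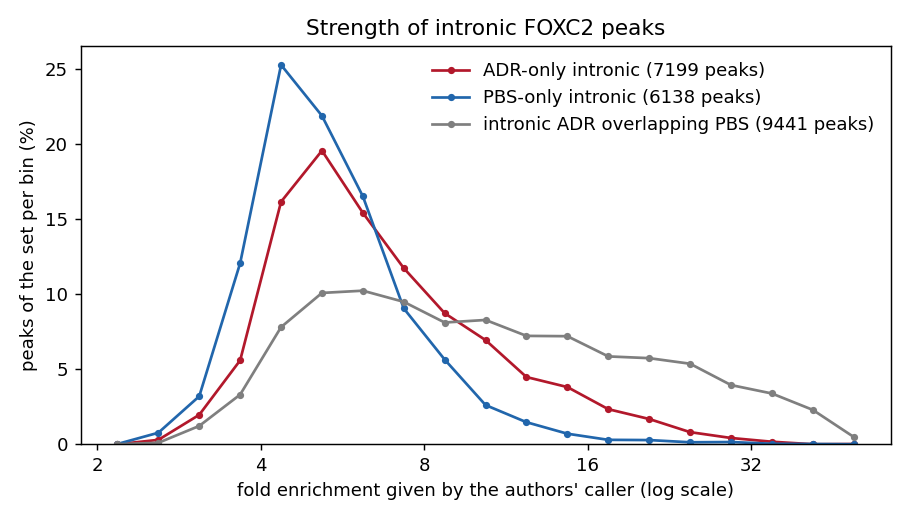
Distribution of the caller's fold enrichment (x axis, log scale) as percent of peaks per bin (y axis) for ADR-only intronic, PBS-only intronic and overlapping intronic ADR peaks. The ADR-only sites have a median fold of 6.05 and a tail to 46.1, and a fold of 10 or more is reached by 18.5% of them, 4.84% of the PBS-only and 47.2% of the overlapping peaks.

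By distance, few sites sat at the edge of the rule. The nearest PBS peak was a median of 7.19 kb away (quartiles 2.26 and 21.2 kb), and 57 sites (0.792%) had one within 100 bp and 537 (7.46%) within 500 bp. Just inside the rule, sites in *Ncam1* (fold 4.07) and *Prmt2* (fold 5.55) lay 4 bp from a PBS peak and 1 in *Il1r1* (fold 3.77) lay 5 bp away. Just outside it, an intronic ADR peak in *Sh3bp5* (fold 4.02) shared 8 bp with a PBS peak, and peaks in *Tbc1d1* and *Gramd4* (fold 4.07 each) shared 13 bp. Only 52 of the overlapping intronic ADR peaks (0.551%) shared 100 bp or fewer. Distance does not show how near a site was to the threshold of the caller. The median −log10 q of the sites was 8.62 (quartiles 5.21 and 16.6).

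The 10 strongest sites lay in *Camta1*, *Fgfr2*, *Klc1*, *Tef*, *Fyn*, *Nf2*, *Smarca2*, *Apbb2*, *Reps1* and *Trio*. *Camta1*, which encodes a calmodulin-binding transcription activator, held the strongest, at 151181215 to 151181912 on chromosome 4, in intron 6 of 24, with a fold of 46.1. The nearest PBS peak was 15.4 kb away. The site assigned to *Fgfr2*, a fibroblast growth factor receptor gene, had a fold of 37.0 but lay 1670 kb from the start of the gene record, in an annotated intron of 2909 kb, and 42.7 kb from the nearest coding gene start. *Klc1*, a kinesin light chain gene, held a site with a fold of 36.9 in intron 7 of 15. *Tef*, which encodes a TF of the PAR bZIP family, held 1 with a fold of 36.5 in its first intron, 2.37 kb from the gene start, and 466 bp from a PBS peak.

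*Fyn*, which encodes a Src family kinase that phosphorylates nephrin, had a site with a fold of 35.8 in intron 3 of 13. *Nf2*, which encodes the Hippo pathway protein merlin, had 1 with a fold of 35.7 in intron 7 of 15, and the nearest PBS peak was 48.1 kb away. The sites in *Smarca2*, a chromatin remodeling ATPase gene, and *Apbb2*, an adaptor gene, had folds of 35.0 and 34.9, and that of *Apbb2* lay 307 bp from a PBS peak. *Reps1*, an endocytosis gene, and *Trio*, which encodes a guanine nucleotide exchange factor for small GTPases, had sites with folds of 34.2 and 33.6. Of these 10 sites, 3 held a forkhead match.

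The sites lay deeper in longer genes than the other intronic peaks. The first intron held 38.3% of them, against 44.9% of PBS-only intronic peaks and 46.8% of the overlapping intronic ADR peaks. The difference was −6.62 points (95% Newcombe interval −8.30 to −4.95) against PBS-only peaks and −8.49 points (−10.0 to −6.98) against overlapping peaks. With promoters drawn 1 kb to each side of a transcript start, the difference from overlapping peaks was −5.49 points. Introns from the third onward held 43.8% of the sites, against 36.1% of PBS-only and 35.5% of overlapping peaks. The median distance to the start of the host gene was 45.8 kb, against 32.7 kb for PBS-only and 32.1 kb for overlapping peaks. The median distance to the nearest coding gene start was 41.0 kb, against 31.2 kb for PBS-only and 30.9 kb for overlapping peaks. Coding genes longer than 100 kb held 57.7% of the sites, which was 11.0 points (9.27 to 12.7) more than for PBS-only peaks and 8.61 points (7.08 to 10.1) more than for overlapping peaks.

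Forkhead words were found more often at these sites than at either other kind of intronic peak. Within 100 bp of the summit, 38.9% of the sites held at least 1 of the 8 forkhead words (Wilson interval 37.8 to 40.04), against 22.3% (21.3 to 23.4) of PBS-only intronic peaks and 26.8% (25.9 to 27.7) of overlapping intronic ADR peaks. The same words were in 25.1% of all ADR peaks and in 31.0% of equally long windows placed 1 kb away on either side of the sites. The difference was 16.6 points (Newcombe interval 15.03 to 18.1) against PBS-only peaks, 12.1 points (10.7 to 13.6) against overlapping peaks and 7.93 points (6.58 to 9.29) against the sites' own flanks. The flanks of PBS-only and overlapping intronic peaks held the words in 27.3% and 28.0% of windows, above the shares at those peaks themselves. ADR-only peaks between genes held them in 40.7%, and the difference of −1.82 points (−3.86 to 0.205) had an interval that included 0.

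Base composition moved with the forkhead result. The median GC content of the window was 49.3% at the sites, 51.7% at PBS-only and 52.7% at overlapping intronic peaks, and a forkhead word is A- and T-rich. With the other peaks weighted to the GC content of the sites, the difference was 12.2 points (10.6 to 13.9) against PBS-only peaks and 4.62 points (3.02 to 6.21) against overlapping peaks. All 8 words had higher shares at the sites. GTAAACA was in 7.13% of the sites, 3.37% of PBS-only and 4.80% of overlapping intronic peaks, and ACAAACA, the most frequent, in 10.8% of the sites, 5.54% of PBS-only and 6.75% of overlapping peaks. GTAAACA or ATAAACA together, a subset of the forkhead words, were in 14.9% of the sites, 7.32% of PBS-only and 10.3% of overlapping intronic peaks, 9.51% of all ADR peaks and 7.79% of the sites' flanks. Their difference from overlapping peaks was 4.68 points (3.66 to 5.71), and 1.58 points (0.374 to 2.79) after weighting to GC content. ADR-only peaks between genes held these 2 words more often, in 17.1%, a difference of −2.16 points (−3.72 to −0.648). Searching only 50 bp on each side of the summit gave smaller differences, 10.6 points for forkhead, 3.05 for LMX1B and −9.33 for AP-1 against PBS-only peaks.

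The LMX1B words were scarcer, and they too were more frequent at the sites than at the other intronic peaks. They were in 482 of the 7199 sites, or 6.70% (6.14 to 7.30), against 1.29% (1.03 to 1.60) of PBS-only and 2.91% (2.59 to 3.27) of overlapping intronic peaks, 3.52% of all ADR peaks and 3.49% of the sites' flanks. The difference was 5.41 points (4.77 to 6.06) against PBS-only peaks and 3.78 points (3.12 to 4.46) against overlapping peaks, and after weighting to GC content it was 4.90 points (4.19 to 5.62) against PBS-only and 2.11 points (1.28 to 2.94) against overlapping peaks. ADR-only peaks between genes held the words more often still, in 9.47%, so that the intronic sites were 2.78 points lower (difference −2.78, interval −3.97 to −1.64). The words TTACGTAA or TTATGTAA of PAR bZIP factors such as TEF, DBP and HLF were in 2.28% of the sites, 0.587% of PBS-only and 1.11% of overlapping intronic peaks, and in 1.20% of all ADR peaks. The difference was 1.69 points (1.30 to 2.10) against PBS-only peaks and 1.17 points (0.770 to 1.58) against overlapping peaks. ADR-only peaks between genes held the PAR bZIP words in 2.01%, and the difference of 0.273 points (−0.357 to 0.840) had an interval that included 0.

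**Figure D3:**
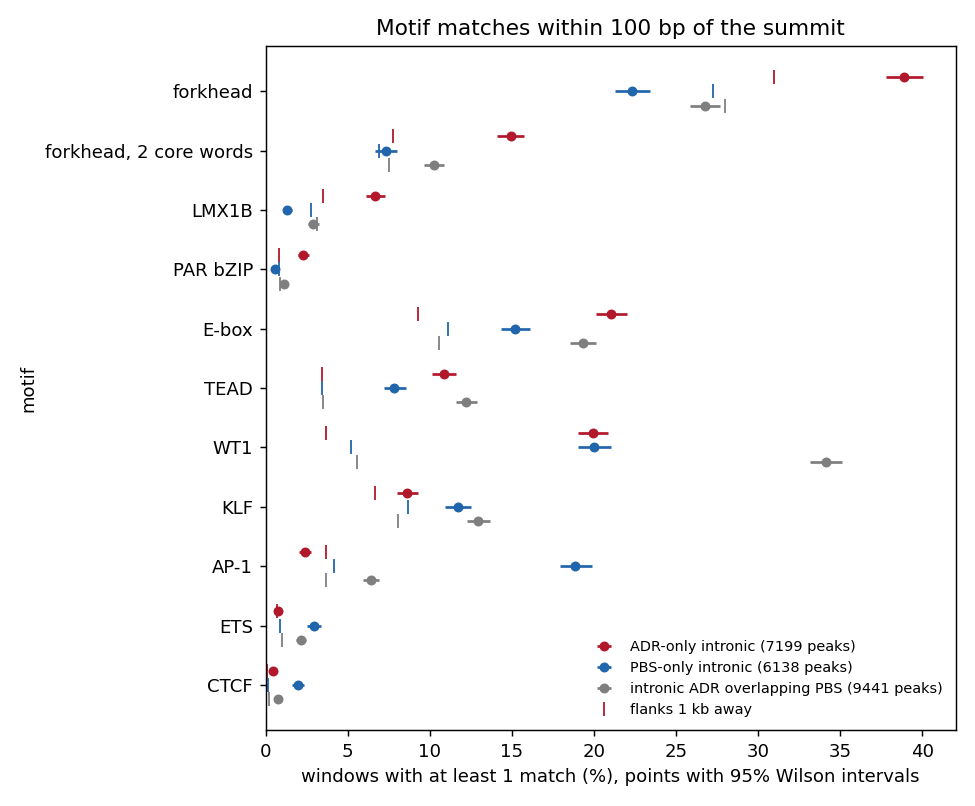
Share of windows with at least 1 match within 100 bp of the summit (x axis, percent) for 11 motifs (y axis) at ADR-only intronic, PBS-only intronic and overlapping intronic ADR peaks. Points carry 95% Wilson intervals and the ticks give the flanks of the same peaks. The forkhead, LMX1B and PAR bZIP points of the ADR-only sites lie to the right of the others, and AP-1 lies at 2.38% against 18.9% of PBS-only peaks.

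WT1 matches were common at the sites but less so than where both lists had a peak. They were in 19.9% of the sites (19.0 to 20.9), 20.01% of PBS-only and 34.1% of overlapping intronic peaks, 29.0% of all ADR peaks and 3.70% of the sites' flanks. Against overlapping peaks the difference was −14.2 points (−15.5 to −12.9). Against PBS-only peaks it was −0.073 points (−1.44 to 1.29), and −3.29 points (−4.99 to −1.58) with the PBS-only peaks weighted to the folds of the sites. That weighting takes the folds of 2 separately called lists as 1 scale, so no WT1 difference from PBS-only peaks is read from it. TEAD words were in 10.8% of the sites, 7.85% of PBS-only and 12.2% of overlapping intronic peaks, 9.25% of all ADR peaks and 3.47% of the flanks. ADR-only peaks between genes held TEAD words in 13.6%. The TEAD difference was 2.996 points (2.01 to 3.98) against PBS-only peaks and −2.73 points (−4.13 to −1.37) against ADR-only peaks between genes. Against overlapping peaks it was −1.37 points (−2.35 to −0.393). Weighted to GC content it was −2.85 points (−3.94 to −1.76), and weighted to fold 0.265 points (−0.747 to 1.28).

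The TCF21-type E-box CAGCTG was in 21.1% of the sites, 15.2% of PBS-only and 19.4% of overlapping intronic peaks, 18.2% of all ADR peaks and 9.27% of the flanks. The word is short and other bHLH factors share it. Its difference was 5.86 points (4.55 to 7.16) against PBS-only peaks and 1.71 points (0.477 to 2.94) against overlapping peaks. ADR-only peaks between genes held the E-box in 21.5%, a difference of −0.416 points (−2.13 to 1.26). KLF words (GGGCGGGG or GGGCGTGG or GGGTGGGG or GGGTGTGG) were in 8.63% of the sites, 11.7% of PBS-only and 13.0% of overlapping intronic peaks, and in 18.6% of all ADR peaks. After weighting to GC content the KLF difference from overlapping peaks was −0.624 points (−1.50 to 0.249), against −4.34 before.

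AP-1 words, the binding word of FOS and JUN dimers (TGACTCA or TGAGTCA), were scarce at the sites. They were in 171 sites, 2.38% (2.05 to 2.75), against 18.9% (17.9 to 19.9) of PBS-only and 6.42% (5.94 to 6.93) of overlapping intronic peaks, 4.02% of all ADR peaks and 3.67% of the sites' own flanks. The sites were lower by 16.5 points than PBS-only peaks (difference −16.5, interval −17.6 to −15.5), by 4.04 than overlapping peaks (−4.04, interval −4.65 to −3.43) and by 1.30 than their own flanks (−1.30, interval −1.76 to −0.819). Other ADR-only peaks shared the scarcity. AP-1 words were in 2.34% of those between genes (difference 0.030 points, −0.636 to 0.631) and in 1.69% of those at promoters (0.689 points, −0.249 to 1.38). The ETS word CCGGAAG was in 0.736% of the sites and 2.93% of PBS-only intronic peaks, and CTCF matches in 0.431% of the sites and 1.96% of PBS-only peaks. In all, 27 motifs were searched and 135 differences computed, and the intervals are not adjusted for that number.

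Shares of all words of 7 bases were also compared, with no motif list. The words named here were picked after their shares were seen. Against PBS-only intronic peaks the largest deficit was that of TGACTCA, followed by CAGGAAG, which was in 7.63% of the sites and 17.8% of PBS-only peaks. The words with the largest excess were CTCCTCC, in 25.3% of the sites and 16.7% of PBS-only peaks, and AAACAAA, in 14.96% of the sites and 7.04% of PBS-only peaks. Against overlapping intronic ADR peaks AAACAAA had the largest excess, with 14.96% at the sites and 9.20% at the overlapping peaks, and CTCCCCC had the largest deficit, with 19.0% at the sites and 26.9% at the overlapping peaks.

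The words were not spread evenly over the windows. In 20-bp bins within 40 bp of the summit, a forkhead match was in 5.31% of the sites per bin, against 3.71% per bin at 400 to 500 bp. PBS-only intronic peaks had 2.50% at the summit and 3.42% away from it, and the overlapping peaks had 3.23% and 3.37%. LMX1B matches were in 0.747% of the sites per bin at the summit and 0.383% away. Within 80 bp of the summit each bin held an LMX1B match in 44 to 68 sites. WT1 matches were gathered at the summit, with 4.07% per bin at the summit and 0.440% away. AP-1 matches had no peak at the sites, with 0.25% per bin at the summit and 0.358% away, against 2.27% and 0.393% at PBS-only peaks.

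**Figure D4:**
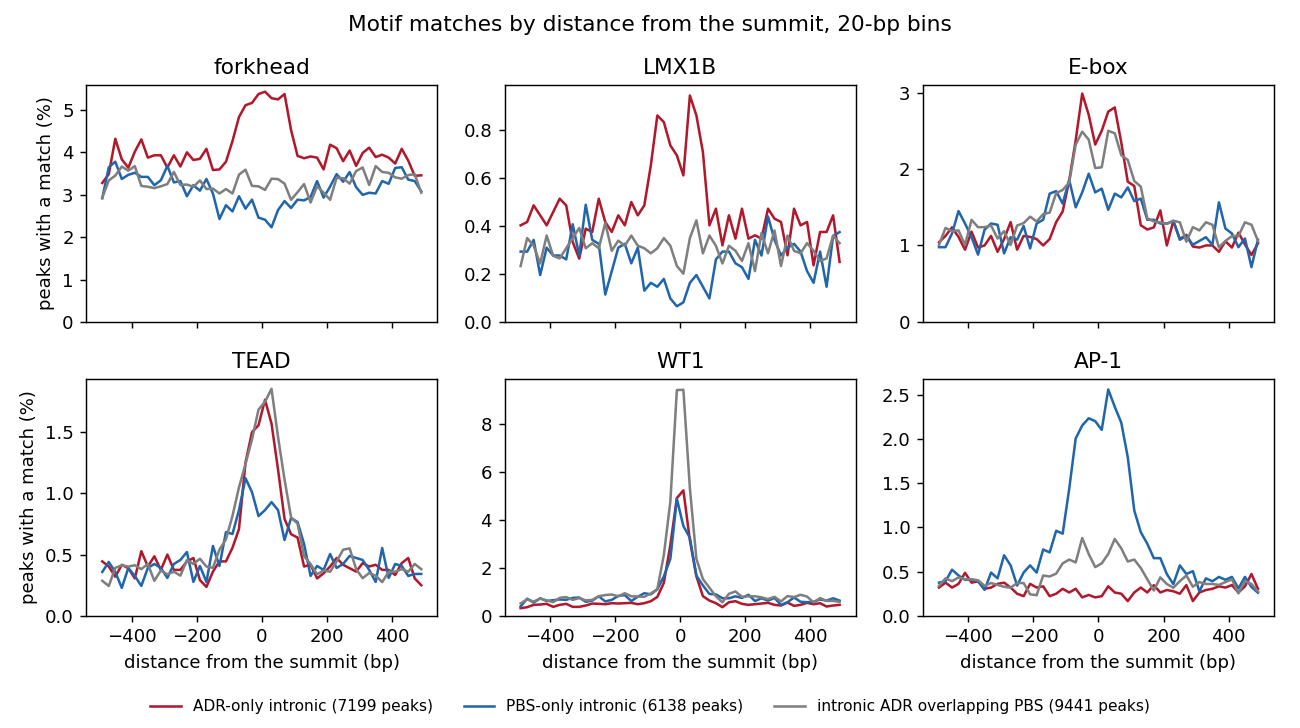
Percent of peaks with a match in each 20-bp bin (y axis, own scale per panel) by distance from the summit (x axis, bp) for 6 motifs. In the ADR-only intronic sites forkhead and LMX1B matches are more frequent near the summit than far from it. Bins within 40 bp hold 5.31% and 0.747%, against 3.71% and 0.383% at 400 to 500 bp. The rise is broad, without a sharp peak at the summit, and AP-1 matches show no rise.

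Among the sites themselves, stronger peaks held more forkhead and LMX1B words. The fold comes from the calls that chose the sites, so this is description, and other intronic peaks were not split by fold. In the weakest quintile by fold (2.55 to 4.60) 34.4% of 1440 sites had a forkhead word, and in the strongest quintile (9.62 to 46.1) 44.2%, with 36.7%, 38.4% and 40.8% in the quintiles between. The strongest quintile was higher by 9.86 points (6.30 to 13.4). LMX1B words were in 4.58%, 5.63%, 6.12%, 6.60% and 10.6% of the quintiles from weak to strong, a difference of 5.97 points (4.06 to 7.92). The median GC content was 49.8% in the weakest quintile and 48.3% in the strongest. TEAD words stayed between 10.3% and 11.3% in all quintiles, and the difference of the outer quintiles was −0.556 points (−2.81 to 1.70). WT1 words were in 16.7% of the weakest quintile and in 20% to 21.7% of the other 4, with the highest share in the second weakest.

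A forkhead word was more frequent at the sites that held an LMX1B word, and likewise at overlapping intronic ADR peaks. Of the 482 sites with an LMX1B word, 213 (44.2%) also had a forkhead word, against 38.5% of the sites without 1, a difference of 5.66 points (1.14 to 10.3). Windows with an LMX1B word had a median GC content of 45.0%, against 49.3% without, and the part of composition in this difference was not tested. At overlapping intronic ADR peaks the forkhead share with an LMX1B word differed by 11.0 points (5.42 to 16.9) from that without. At PBS-only intronic peaks it differed by 3.02 points (−5.34 to 13.6). Both words together were in 2.96% of the sites, 0.326% of PBS-only and 1.09% of overlapping intronic peaks. With WT1 the relation ran the other way, with a forkhead word in 32.5% of the sites with a WT1 match and in 40.5% of those without (−8.04 points, −10.7 to −5.27). That difference was −4.65 points (−6.48 to −2.79) at overlapping and −2.47 points (−4.94 to 0.138) at PBS-only intronic peaks. The 5 strongest sites with both a forkhead and an LMX1B word lay in *Camta1* (fold 46.1), *Etl4* (31.0), *Abca14* (26.6), the noncoding gene *AC154218.2* (26.6) and *Tspan11* (26.5). They were 3.06 to 83.4 kb from the nearest PBS peak, and 1 of them, in *Tspan11*, had a WT1 match as well.

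The sites were spread over many genes, with a dense minority. Of the 7199 sites, 6705 (93.1%) lay in coding genes, each assigned to the shortest such gene around its summit, and 2941 genes were hosts. A single site was found in 1687 of them, 5 or more in 312, and 10 or more in 82, whereas 24 genes had 10 or more PBS-only intronic peaks. Of the 2941 hosts, 1722 also held an overlapping intronic ADR peak, and 971 had no intronic PBS peak at all. Of the sites, 27.03% had another within 5000 bp, against 22.8% of PBS-only and 32.7% of overlapping intronic peaks.

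The hosts with the most sites were long. *Lrmda*, 1036 kb long, held 27 sites and 6 PBS-only intronic peaks. *Gm20388*, a gene model of 4.43 Mb that overlaps 73 other coding genes, also held 27, with 31 PBS-only peaks. *Tenm4*, a teneurin gene of 740 kb, held 25 sites and 3 PBS-only peaks, with folds up to 31.6. *Maml3*, a Notch coactivator gene, held 23 sites and 11 PBS-only peaks, and *Camta1* 22 sites and 7 PBS-only peaks. *Trappc9*, which encodes a subunit of the TRAPP trafficking complex, held 22 sites and no PBS-only intronic peak, beside 6 overlapping ADR peaks. *Pde4d*, a cAMP phosphodiesterase gene, held 21 sites and 6 PBS-only peaks, and *Prkce*, the gene of protein kinase C epsilon, 21 sites and 7 PBS-only peaks. *Gse1*, *Plcl1*, *Rbms3* and *Rora* held 18 sites each, against 6 PBS-only peaks in *Gse1*, 5 in *Rbms3* and 3 each in *Plcl1* and *Rora*. Of the 82 genes with 10 or more sites, 8 had no PBS-only intronic peak and 2 had more PBS-only peaks than sites.

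Podocyte genes held the sites more often than coding genes at large, and the same was true of the intronic ADR peaks that overlapped a PBS peak. Of 48 podocyte genes, a list the study took from earlier single-cell work, 28 had at least 1 site (58.3%), against 13.6% of all 21911 coding genes. PBS-only intronic peaks were in 17 of the 48 (35.4%) and in 13.7% of all coding genes, and overlapping intronic ADR peaks in 34 of the 48 (70.8%) and in 17.1% of all coding genes. Among genes with any intronic peak in either list, 77.8% of the podocyte genes and 49.0% of all genes held a site, while 47.2% of the podocyte genes and 49.3% of all genes held a PBS-only peak. Sites numbered 22.4 per Mb of podocyte gene and 6.42 per Mb of all coding genes, against 10.8 and 5.31 for PBS-only peaks and 32.05 and 8.37 for overlapping peaks. In 21 of the 48 genes sites outnumbered PBS-only intronic peaks, and in 3 they were fewer. The list was chosen here with its peaks in these samples known, so these counts are a description.

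**Figure D5:**
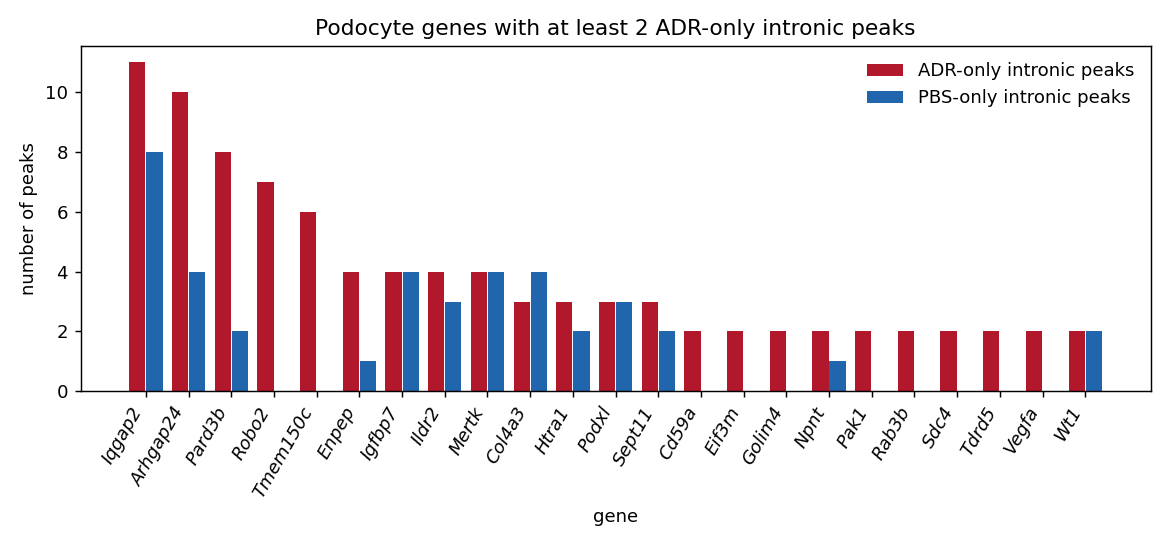
Number of ADR-only and PBS-only intronic peaks (y axis) in each of the 23 podocyte genes (x axis) that hold at least 2 ADR-only intronic sites, 1 pooled list per condition. *Iqgap2* has 11 ADR-only and 8 PBS-only peaks, *Robo2* has 7 and *Tmem150c* 6 ADR-only peaks with no PBS-only peak, and *Col4a3* has 3 ADR-only and 4 PBS-only peaks.

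The strongest site in the 48 genes lay in *Pak1*, which encodes a kinase of actin remodeling, at 97852200 to 97852589 on chromosome 7 in its first intron, with a fold of 18.3. *Tmem150c*, a membrane protein gene, held 6 sites and no PBS-only intronic peak, and its strongest, at 100115802 to 100116187 on chromosome 5, had a fold of 16.02. The window around that summit was 100% repeat sequence. *Npr3*, the natriuretic peptide clearance receptor gene, held 1 site, at 11898857 to 11899285 on chromosome 15, with a fold of 15.3 and a PBS peak 611 bp away. *Iqgap2*, a scaffold gene of the actin cytoskeleton, held 11 sites, the strongest with a fold of 15.1.

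Other podocyte genes of membrane and slit diaphragm had weaker sites. *Pard3b*, a polarity gene, held 8 (strongest fold 12.8), *Robo2*, which encodes a guidance receptor at the slit diaphragm, 7 (7.86), and *Podxl*, the podocalyxin gene, 3 (7.81). *Nphs1*, the nephrin gene, held a single site with a fold of 4.71 in intron 11, under the median of the sites.

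Among the signaling genes, *Arhgap24*, which encodes a Rac GTPase-activating protein, held 10 sites (strongest fold 8.21), the receptor kinase gene *Mertk* 4 (10.8) and *Vegfa*, the main endothelial growth factor gene of the glomerulus, 2 (8.43). Of the matrix and secreted genes, *Htra1* held 3 (11.2), *Col4a3*, which encodes a collagen chain of the glomerular basement membrane, 3 (7.61), *Igfbp7* 4 (6.49), *Npnt*, the nephronectin gene, 2 (5.14) and the syndecan gene *Sdc4* 2 (4.73). The peptidase genes *Dpp4* and *Enpep* held 1 (10.6) and 4 (8.15). The other podocyte hosts reported here had strongest folds between 4.94 in *Sept11* and 11.9 in *Golim4*, with *Ildr2* (9.87), *Cd59a* (9.38), *Thsd7a* (7.06), *Tdrd5* (6.51), *Rab3b* (5.76) and *Eif3m* (5.42) between them. *Wt1* held 2 sites in intron 3, with folds of 10.8 and 4.99, and both had a forkhead word.

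Genes of a glomerular disease list drawn up here held sites in 29 of 52 cases (55.8%, against 13.6% of all coding genes), with PBS-only intronic peaks in 27 (51.9%, against 13.7%). The evidence that ties each gene to human disease was not graded. The sites numbered 142 and the PBS-only peaks 91, which is 19.8 and 12.7 per Mb, and the median gene of the list was 65.5 kb long, against 17.4 kb for all coding genes. *Plce1*, the gene of phospholipase C epsilon, held the strongest, at 38496481 to 38497023 on chromosome 19 with a fold of 22.6 and an LMX1B word, among 10 sites in all. *Cd2ap*, the gene of a slit diaphragm adaptor, held 1, at 42840791 to 42841276 on chromosome 17 with a fold of 20.3 and a forkhead word, and had no PBS-only intronic peak. *Fat1*, a protocadherin gene, held 1, at 44959391 to 44960128 on chromosome 8 with a fold of 17.7, with a PBS peak 440 bp away. *Kirrel3*, a relative of nephrin, had a site at 34689327 to 34689754 on chromosome 9 (17.5), and *Magi2*, which encodes a scaffold protein of the slit diaphragm, had 15 sites, the strongest at 20379722 to 20380107 on chromosome 5 (16.6). *Nos1ap* also held 15, the strongest with a fold of 12.2, and 9 of them had a forkhead word and 4 an LMX1B word.

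The other hosts of this list, leaving out those named above, had 1 to 13 sites each. Among those reported here the strongest folds were 14.4 in *Ptpro*, the gene of a podocyte receptor phosphatase, 10.5 in *Kank1*, 10.4 in *Dlc1*, 10.1 in *Kirrel*, 8.70 in *Pdss2*, 8.45 in *Col4a4*, 8.29 in *Itsn2*, 8.15 in *Col4a5*, 7.79 in *Inf2*, 7.18 in *Cubn*, 6.92 in *Tjp1*, 6.43 in *Kank4*, 5.69 in *Myo1e*, 4.84 in *Kank2*, 4.32 in *Emp2* and 3.15 in *Tns2*. The *Ptpro* site held both a forkhead and an LMX1B word. *Myo1e*, a podocyte myosin gene, held 7 sites against 12 PBS-only intronic peaks, so the PBS-only peaks were more numerous there.

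Genes of podocyte TFs held sites in 17 of 35 cases, and PBS-only intronic peaks likewise in 17 (48.6% for both, against 13.6% and 13.7% of all coding genes). *Dach1* held 10 sites and no PBS-only intronic peak, the strongest at 97791651 to 97792192 on chromosome 14 with a fold of 16.5 and both a forkhead and an LMX1B word. *Tead1* held 8, the strongest at 112810821 to 112811175 on chromosome 7 (15.6), and *Rbpj*, the Notch effector gene, held 6 (15.2). *Lmx1b* itself held 8 sites and 2 PBS-only intronic peaks, and its strongest site, at 33607340 to 33607943 on chromosome 2, had a fold of 12.7. Strongest folds of 13.0 to 14.3 were found in *Zbtb20*, *Tead4*, *Zeb2* and *Zhx2*, and of 4.46 to 10.1 in *Zhx3*, *Ets1*, *Nfia*, *Pax2*, *Glis3*, *Nfib*, *Sall1* and *Glis2*. *Ets1* held 1 site against 7 PBS-only intronic peaks.

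The next 5 lists hold long genes, with medians from 51.1 kb (Hippo pathway) to 189.96 kb (axon guidance), and their counts are to be read beside 13.6% of all coding genes with a site and 6.42 sites per Mb of coding gene. Slit diaphragm, polarity and junction genes held sites in 24 of 32 cases (10.1 per Mb), against 18 with PBS-only intronic peaks (6.50 per Mb). Leading among them was *Nck2*, the gene of an adaptor that binds phosphorylated nephrin, with a fold of 26.4, followed by *Cd2ap*. Actin and adhesion genes were level, with 28 of 41 for sites and 28 of 41 for PBS-only peaks, and 126 sites against 125 PBS-only peaks (19.4 and 19.2 per Mb). *Trio* (33.6) and *Myh9*, which encodes nonmuscle myosin IIA (22.0), had the strongest sites. Axon guidance genes held 69 sites and 33 PBS-only peaks (8.72 and 4.17 per Mb), in 16 and 17 of 30 genes, with *Sema5a* (25.4) and *Plxna2* (18.1) in the lead. WNT, TGF-beta and BMP pathway genes held 61 sites and 46 PBS-only peaks (21.2 and 15.98 per Mb), in 15 and 17 of 30 genes, led by *Bmpr1b* (17.6) and *Lef1* (14.3). YAP, TEAD and Hippo pathway genes held 24 sites and 31 PBS-only peaks (16.4 and 21.2 per Mb), in 8 and 11 of 21 genes, led by *Nf2* (35.7) and *Vgll3* (21.3).

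Matrix genes held 4.63 sites per Mb, p53 and DNA damage genes 5.42 and cell death genes 5.31, against 6.42 for all coding genes. Their PBS-only intronic peaks numbered 16.5, 4.52 and 19.9 per Mb, against 5.31 for all coding genes. Matrix genes held 16 sites and 57 PBS-only intronic peaks, in 9 and 14 of 26 genes. *Col4a1*, a basement membrane collagen gene, held 1 site (14.99) against 9 PBS-only peaks, and *Col18a1* had 4 of each (14.4). Of 28 genes of the p53 and DNA damage response only *Fancc*, a Fanconi anemia gene, held sites, 6 in all with the strongest at a fold of 30.4, whereas 5 of the 28 held PBS-only peaks. Cell death genes held sites in 3 of 20 cases (15%), close to the 13.6% of all coding genes, and PBS-only peaks in 6. The sites were in *Bcl2* (8.84) and in *Xiap* and *Birc3* (4.87 each), which encode inhibitors of apoptosis. None of the 12 AP-1 family genes held a site, and 4 of them held 10 PBS-only intronic peaks. Their median length was 9.75 kb, against 17.4 kb for all coding genes, of which 13.6% held a site. In so few and short genes, a count of 0 sites is not read as a result.

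The peak lists hold no measure of expression, so the sorted cells can be checked only by which marker genes hold peaks. Beside these counts, 13.6% of all coding genes held a site and 13.7% a PBS-only intronic peak, and with 10 to 16 genes a list, shares such as 2 of 16 and 2 of 11 lie near that level. Sites were found in 2 of 16 endothelial markers (*Pecam1* 12.4 and *Flt1* 7.74), 3 of 12 mesangial markers (strongest *Agtr1a* 12.5 and *Pdgfrb* 8.43), 4 of 14 proximal tubule markers (*Keg1* 25.5 and *Cubn* 7.18), 1 of 13 distal tubule and collecting duct markers (*Slc12a3* 3.99), 4 of 10 parietal epithelial markers (*Cd44* 16.4 and *Ncam1* 15.95) and 2 of 11 immune markers (*Cx3cr1* 15.5 and *C1qa* 6.51). The *Cx3cr1* gene record is 168 kb long and overlaps 5 other coding genes, so its site may lie in another gene as well. PBS-only intronic peaks were in 7 of the endothelial, 4 of the mesangial, 1 of the proximal tubule, 0 of the distal, 4 of the parietal and 2 of the immune markers. The 14 proximal tubule markers held 11 sites and 3 PBS-only peaks, and the 16 endothelial markers held 3 sites and 8 PBS-only peaks. What other cells in the sort contributed to the sites was not tested. Of 24 long neuronal genes 13 held sites, led by *Rbfox1* (26.5) and *Opcml* (23.9), but their median length was 1487 kb, against 17.4 kb for all coding genes. The 24 genes held 90 sites and 16 PBS-only peaks, or 2.51 and 0.446 per Mb. Both densities were below those of all coding genes, 6.42 and 5.31 per Mb. None of 20 ribosomal protein genes, of median length 4.43 kb, held a site, and 1 held a PBS-only intronic peak.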

How the data were processed

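FOXC2 ChIP-seq was done on sorted podocytes from 3 ADR and 3 PBS samples with an Abcam antibody. Per the study's methods and the labels, the authors used single-end reads, trimmed before alignment to GRCm38, and nf-core/chipseq for narrow peaks, with replicates merged per group, although the peak names carry a replicate tag. The threshold and settings of the caller are not given in the sources used here, and read depth is not in the lists. The deposited files are 2 peak lists of 10 columns. Per peak, the authors give a whole-number score, an enrichment over control as a fold (a ratio), and p-value and q-value as −log10. Of these, score and p entered no result. Pooling before calling removes the spread between mice, and separate calling means that a site near the threshold can be in 1 list only.

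Each summit was placed with GENCODE M21 in the order promoter, transcript end, exon, intron and intergenic, and each peak was set against the other list by shared bases. The host was the shortest coding gene with a transcript over the summit, and introns were numbered on its principal transcript. In gene lists a peak counted for every coding gene around its summit. Motifs were exact matches on both strands within 100 bp of the summit in the GRCm38 sequence from RefSeq, beside windows 1 kb to each side. Shares have 95% Wilson intervals and their differences 95% Newcombe intervals, and a difference was past the threshold where its interval left out 0. In differences weighted to GC content (bins of 5 percentage points) or to fold, the other peaks were weighted to the sites' distribution, with normal-approximation intervals. The alternatives were stricter calls (smaller q, larger fold, equal list sizes, no PBS peak nearby, overlap by share of length), other gene models and promoter limits, the peak midpoint in place of the summit, a narrower motif window, windows mostly free of repeats, the longest transcript for numbering introns, and both weightings.

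Named genes were set by rule: hosts of the 10 strongest sites, the 10 coding genes with the most sites, every host from 3 podocyte lists, the 2 genes with the strongest site from each other list, and the 5 strongest sites with forkhead and LMX1B words. Some genes and 1 motif that meet these rules are not reported here. Genes at the edge of the rule and single genes singled out for their balance were chosen after their values were seen. The members, gene lists and motifs were chosen with earlier results of these data known. Methods were tested on simulated data. Python 3.11.15, NumPy 2.4.6, pandas 2.3.3, SciPy 1.17.1 and matplotlib 3.10.9 were used.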

Additional observations from a re-analysis of the deposited data

How the results depend on the processing

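Across 9 results and 106 alternative settings, every direction held and 105 settings left the result on its side of the threshold or within 1.5 times the count. The exception was the number of ADR-only intronic sites, which was 3928 when each list was reduced to its 20000 peaks of smallest q, against 7199. That setting keeps fewer peaks by construction. Elsewhere the number lay between 6388 (a fold of at least 5 in both lists) and 8635 (a peak called shared only with 50% overlap of both). The forkhead difference from overlapping peaks ranged from 4.62 points, weighted to GC content, to 13.9, and that from PBS-only peaks from 10.6, with motifs within 50 bp, to 17.0. The LMX1B difference from PBS-only peaks ranged from 3.05 to 6.30, TEAD from 2.40 to 4.02, and AP-1 from −21.9 to −9.33. The AP-1 value of −21.9 came from weighting to fold, across the 2 lists. The WT1 difference from overlapping peaks ranged from −18.5 to −11.7, the first-intron difference from −10.3 to −5.49, and the podocyte genes with a site from 25 to 30. The alternative with only transcripts of the GENCODE basic set was added after seeing the data. Motif differences outside the 9 results did not all hold. The TEAD difference from overlapping peaks moved from −1.37 to 0.265 points when weighted to fold. That of KLF moved from −4.34 to −0.624 points when weighted to GC content. The WT1 difference from PBS-only peaks moved from −0.073 to −3.29 points when weighted to fold.

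No paired analysis was possible because each condition was deposited as 1 list, and for the same reason leaving out a replicate was not possible. Read depth and caller threshold are unknown. From the lists alone, a site in 1 list only cannot be told apart from 1 just short of a call in the other. The paper also compared ADR and PBS signal directly. Of its own peaks bound only in ADR, in all places, it reported increased binding at most but not all.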
